A study of Homo sapiens with 12 samples.

Results

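DNA methylation was compared between 2 lines of clear cell renal cell carcinoma, 769 and 786 in the labels, after both had been treated with ascorbic acid (AA). The comparison rests on 1 kb windows of the genome, fixed from position 1 of each chromosome, in which every one of the 4 MspI libraries of the AA samples held 10 or more tags. Of 446761 windows on chromosomes 1 to 22 and X with a listed CCGG site, 44016 met this rule. Each line gave 2 AA-treated DNA samples, called sample 1 and sample 2, and each DNA sample gave 1 HpaII and 1 MspI library, so 8 of the 12 libraries of the series were used. Line 786 treated with AA was set against line 769 treated with AA, so the agent is shared by every sample compared. The labels do not say whether the 2 samples of a line came from separate cultures, doses or times, and p-values therefore measure only the spread between these samples. The control samples, 1 per line, stayed out of the main comparison because their HpaII libraries stand apart. Their HpaII tags lay at 105450 nuclear sites in 769 and 34185 in 786, against 133674 to 278072 in the AA samples. Nuclear HpaII tags numbered 5050658 in the 769 control, within the range of the AA samples, and 160231 in the 786 control.

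HELP-tagging reads methylation with a pair of restriction enzymes that share the recognition sequence CCGG. HpaII cuts only where the inner cytosine carries no methyl or hydroxymethyl group, and MspI cuts in either state, so MspI shows which sites could have been read. In most human cells CpG-dense stretches at gene starts (CpG islands) are free of methylation, while isolated CpGs between and within genes are methylated. Carcinomas often gain methylation at some islands, many of them at developmental genes, and lose it elsewhere. AA is a cofactor of the TET enzymes, which oxidise 5-methylcytosine. The readout is the HpaII/MspI ratio of a window, its share of the nuclear HpaII tags divided by its share of the nuclear MspI tags. A ratio near 0 reads a methylated (closed) window and a ratio around or above 1 an unmethylated (open) one. A window was counted as open in a line at a ratio of at least 0.5 in both samples and closed at a ratio under 0.1 in both.

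The promoters printed here carry the sequences whose CCGG sites separated the lines, and were taken from RefSeq (GRCh38.p14). Each runs from 250 bases before a gene's start to 50 after it, and capitals mark CCGG, the only letters that the assay reads. The first 3 belong to genes whose start window had a lower ratio in 786. LRFN4 encodes a synaptic adhesion protein with leucine-rich repeats, POPDC3 a membrane protein of the Popeye family that binds cAMP, and UTF1 a chromatin-bound transcription factor of embryonic stem cells.
LRFN4: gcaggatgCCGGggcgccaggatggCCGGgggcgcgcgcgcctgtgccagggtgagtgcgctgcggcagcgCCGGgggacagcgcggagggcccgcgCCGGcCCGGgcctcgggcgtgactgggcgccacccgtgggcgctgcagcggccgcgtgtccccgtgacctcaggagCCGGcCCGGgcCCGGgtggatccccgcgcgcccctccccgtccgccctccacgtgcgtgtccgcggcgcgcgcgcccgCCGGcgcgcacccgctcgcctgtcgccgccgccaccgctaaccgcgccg
POPDC3: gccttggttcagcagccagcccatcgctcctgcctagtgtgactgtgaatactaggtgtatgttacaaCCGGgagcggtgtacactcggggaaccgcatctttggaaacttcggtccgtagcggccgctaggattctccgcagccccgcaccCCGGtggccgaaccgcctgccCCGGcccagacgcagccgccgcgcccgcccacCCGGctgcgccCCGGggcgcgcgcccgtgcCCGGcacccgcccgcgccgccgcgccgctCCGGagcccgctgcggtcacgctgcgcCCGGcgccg
UTF1: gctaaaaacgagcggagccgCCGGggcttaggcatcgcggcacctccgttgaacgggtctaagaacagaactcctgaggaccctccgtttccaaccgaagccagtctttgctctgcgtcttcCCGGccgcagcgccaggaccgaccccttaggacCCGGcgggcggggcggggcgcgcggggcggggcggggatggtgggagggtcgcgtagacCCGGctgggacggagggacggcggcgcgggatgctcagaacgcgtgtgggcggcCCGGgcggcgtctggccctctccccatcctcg

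The other 3 belong to genes whose start window had a higher ratio in 786. RAB34 encodes a small GTPase that acts in the formation of cilia, SLC6A19 the neutral amino acid transporter of the proximal tubule brush border, and WFDC2 a secreted protein with whey acidic protein domains.
RAB34: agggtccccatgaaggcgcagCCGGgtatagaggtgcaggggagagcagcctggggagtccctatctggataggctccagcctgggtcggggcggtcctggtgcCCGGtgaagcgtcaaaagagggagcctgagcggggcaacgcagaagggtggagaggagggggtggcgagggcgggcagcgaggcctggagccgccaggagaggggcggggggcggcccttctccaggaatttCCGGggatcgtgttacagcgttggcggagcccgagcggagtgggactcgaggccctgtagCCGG
SLC6A19: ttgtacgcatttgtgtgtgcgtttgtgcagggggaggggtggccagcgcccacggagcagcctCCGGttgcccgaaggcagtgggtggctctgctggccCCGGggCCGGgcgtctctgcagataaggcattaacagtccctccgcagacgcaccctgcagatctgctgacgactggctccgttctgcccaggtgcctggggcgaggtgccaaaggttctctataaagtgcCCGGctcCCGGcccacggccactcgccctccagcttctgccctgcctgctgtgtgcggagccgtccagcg
WFDC2: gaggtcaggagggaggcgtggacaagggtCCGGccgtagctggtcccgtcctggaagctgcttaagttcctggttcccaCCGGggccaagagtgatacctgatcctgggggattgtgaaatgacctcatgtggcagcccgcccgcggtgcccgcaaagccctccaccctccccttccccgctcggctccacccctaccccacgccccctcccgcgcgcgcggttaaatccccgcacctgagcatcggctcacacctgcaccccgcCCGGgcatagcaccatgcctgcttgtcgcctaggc

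At the LRFN4 site at base 252 of the printed sequence, counted from 1 at its 5′ end, HpaII left 64 and 99 tags in the 2 samples of 769 and 0 in both samples of 786. MspI left 15 and 52 tags there in 769 and 0 and 6 in 786. Over the 7 listed CCGG sites of this promoter the HpaII tags came to 163 and 179 in 769 and to 0 and 0 in 786. The MspI tags of the same 7 sites came to 63 and 81 in 769 but only 9 and 27 in 786. Sample 1 of 786 had all of its 9 at base 26, so MspI gave no check of most of these sites in that sample. In UTF1 the site at base 269 had 100 and 93 HpaII tags in 769 against 0 and 1 in 786, and the site at base 215 had 44 and 58 against 0 and 0. MspI left 0 and 51 tags at base 269 in 786, so it gave no check of sample 1 there. At base 215 it left 5 and 6 tags in 786. The 5 sites of UTF1 together had 277 and 160 HpaII tags in 769 and 0 and 1 in 786, while their MspI tags numbered 57, 93, 55 and 91 in the same order. For POPDC3 the 7 listed sites had 154 and 55 HpaII tags in 769 and none in 786, on 39 and 19 MspI tags in 769 and 35 and 34 in 786. All 35 MspI tags of sample 1 of 786 lay at base 69, outside the tested window, so MspI gave no check of the other 6 sites in that sample. Over the whole 1 kb window, which the test used, MspI tags numbered 116 and 82 in the samples of 786 for LRFN4 and 218 and 97 for POPDC3. For POPDC3 all 218 lay at 1 site, 224 bases past the start, where HpaII left 43 and 0 tags in 769. The other POPDC3 sites of the window thus had no MspI check in sample 1 of 786.

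The other 3 promoters had more HpaII tags in 786. RAB34 had 3 and 0 HpaII tags over its 4 sites in 769 and 224 and 41 in 786. WFDC2 had 20 and 22 tags in 769 and 307 and 104 in 786 at base 266, its strongest site. The 5 sites of SLC6A19 had 10 and 13 tags in 769 and 429 and 93 in 786, and 404 of the 429 lay at base 106. At that site MspI left 22 and 29 tags in 769 and 0 and 20 in 786. MspI thus gave no check of the site in sample 1 of 786, which held the 404 tags. A site can yield HpaII tags where MspI left 0, so 0 MspI tags do not show that a site cannot be cut. The plot of single sites shows the same windows beyond the printed bases.

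**Figure D1:**
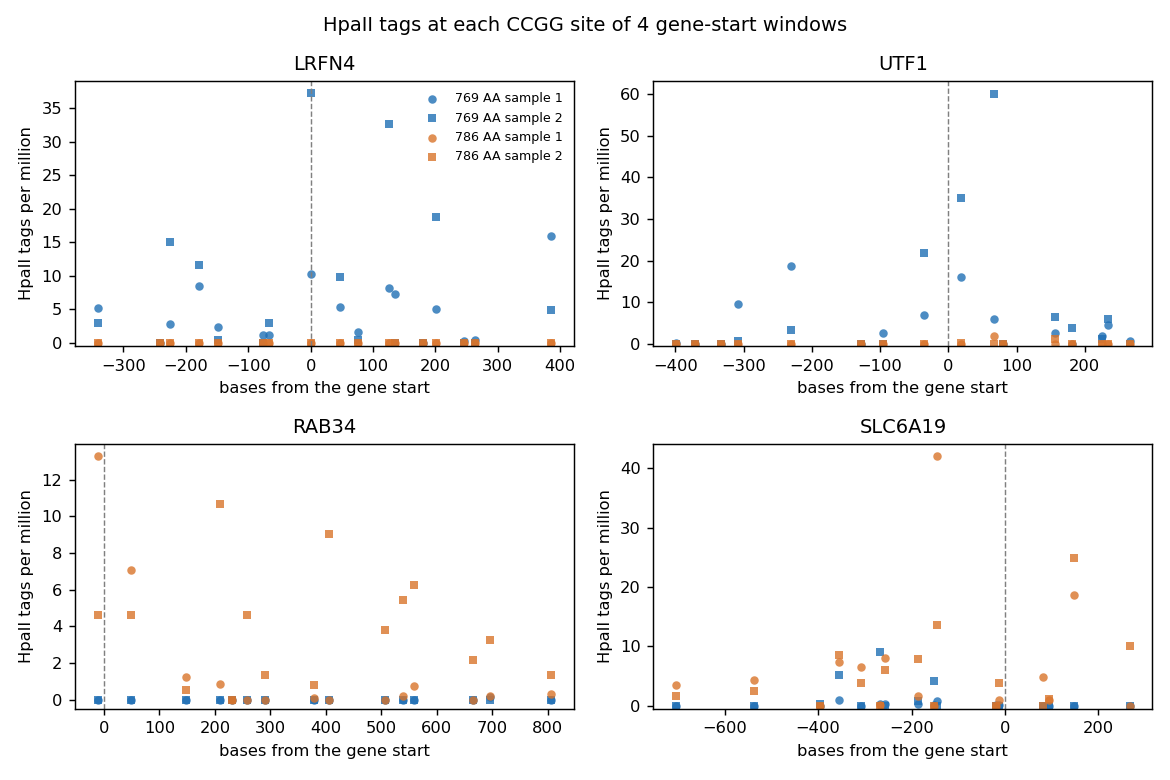
HpaII tags scaled to the nuclear HpaII total of each library (vertical axis) at each listed CCGG site of the start windows of LRFN4, UTF1, RAB34 and SLC6A19, by distance in bases from the gene start (horizontal axis, dashed line at the start); blue marks are the 2 samples of 769 and orange marks the 2 of 786. In LRFN4 and UTF1 the 786 marks lie at or near 0 at every site, while in RAB34 and SLC6A19 the 769 marks are low at most sites.

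The 8 libraries held between 2662391 and 9618660 nuclear tags, and the median window had between 36 and 54 MspI tags per library. HpaII tags were absent from 23.1% and 47.9% of the windows in samples 1 and 2 of 769, and from 32.4% and 31.7% in those of 786. The 769 library with the most empty windows was also the shallowest HpaII library. Median ratios were 0.300 and 0.0256 in 769 and 0.498 and 0.603 in 786. Across all 44016 windows the 2 samples of a line were more alike than samples of different lines. Spearman's rho was 0.785 within 769 and 0.811 within 786, and between 0.667 and 0.717 across lines. These are descriptions over windows, which share the depth and CCGG content of their libraries.

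Most windows had the same state in both lines. Open in both were 13669 windows (31.1%), and closed in both 12418 (28.2%). A further 1642 (3.73%) were open in 786 and closed in 769, and 265 (0.602%) were open in 769 and closed in 786. Within lines, 2961 windows were open in 1 sample of 769 and closed in the other, and 1965 were split in this way between the samples of 786. A split within a line needs only 1 open and 1 closed sample, while a difference between lines needs both samples of each line to agree. The sizes of these counts can therefore not be compared, and splits between single samples of different lines were not counted.

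The state followed CCGG density in both lines. Among the 3127 windows with 16 or more CCGG sites, as islands have, 83.1% were open in both lines and 3.07% closed in both. Among the 5323 windows with 1 to 2 sites, 5.15% were open in both and 51.6% closed in both. In these sparse windows 357 (6.71%) were open in 786 and closed in 769, against 23 (0.432%) with the opposite states. In the densest class the counts were 11 and 19. The ratio of sparse windows divided by that of dense windows was 0.166 and 0.236 in the samples of 769 and 0.508 and 0.277 in those of 786. Both values of 786 lay above both of 769, by 1.90-fold between geometric means, but the exact permutation test over 4 samples gave a two-sided p of 0.333, the smallest that its 6 arrangements allow. Without sample 1 of 786 the fold was 1.40.

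**Figure D2:**
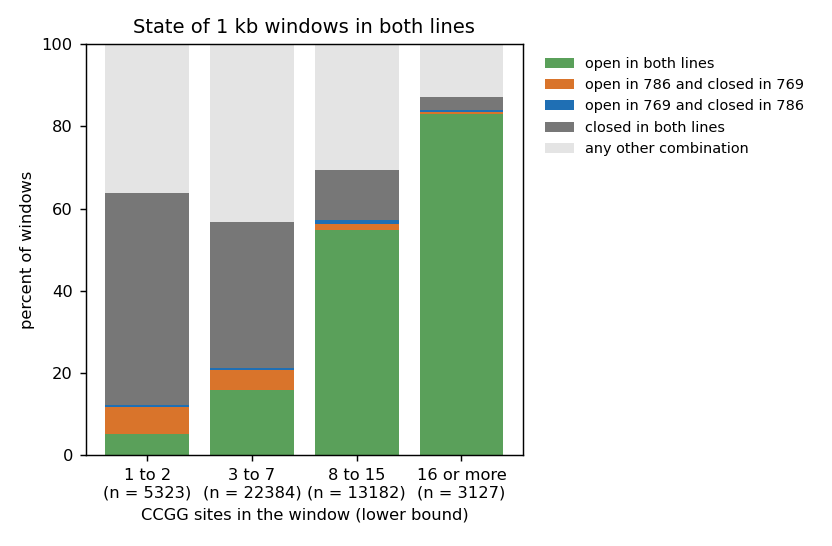
Percent of 1 kb windows (vertical axis) in each combination of states, by the number of CCGG sites in the window (horizontal axis; a lower bound, from the site numbers of the files), with n windows per bar. Open in both lines grows from 5.15% in the sparsest class to 83.1% in the densest, and the orange share, open in 786 and closed in 769, is 6.71% in the sparsest.

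Of the 44016 windows, 30745 also had a sum of 10 or more HpaII tags, taken over all 4 HpaII libraries, and entered edgeR's quasi-likelihood test of the enzyme by line term. At a Benjamini-Hochberg adjusted p under 0.05, 644 windows (2.09%) differed. Of these, 434 (1.41%) were higher in 786, read as less methylation or hydroxymethylation relative to MspI, and 210 (0.683%) were lower. This excess of higher windows was not stable. Without sample 1 of 786 the counts were 53 higher and 84 lower, without sample 2 of 786 they were 99 and 192, and among windows with at least 10 HpaII tags in each library they were 3 and 9. With HpaII alone the counts were 396 and 329. Over all tested windows the median difference was 0.45 (log2, 786 minus 769), and in the windows with at least 10 HpaII tags in each library it was −0.09.

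The 2 samples of 786 did not overlap the 2 of 769 in 13873 tested windows (45.1%), and in each of the 644 called windows. Of the windows called higher in 786, 318 were closed in 769 and open in 786, and of those called lower, 115 were open in 769 and closed in 786. The called windows were mainly switches between an empty and a well filled HpaII count. The test could seldom call less, since on simulated data it recovered 0% of 4-fold and 4.55% of 16-fold changes. Windows called higher had a median of 336.5 HpaII tags over the samples of 786 and 1 over those of 769. Windows called lower had a median of 288 tags in 769 and 0 in 786. In 138 of the former and 108 of the latter the low line had no HpaII tag at all. Evidence from single sites was common, since 127 and 56 of these windows had at most 1 site with a HpaII tag in both samples of the open line. The strongest site held a median of 68.1% of the tags in windows called higher and 45.5% in windows called lower.

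**Figure D3:**
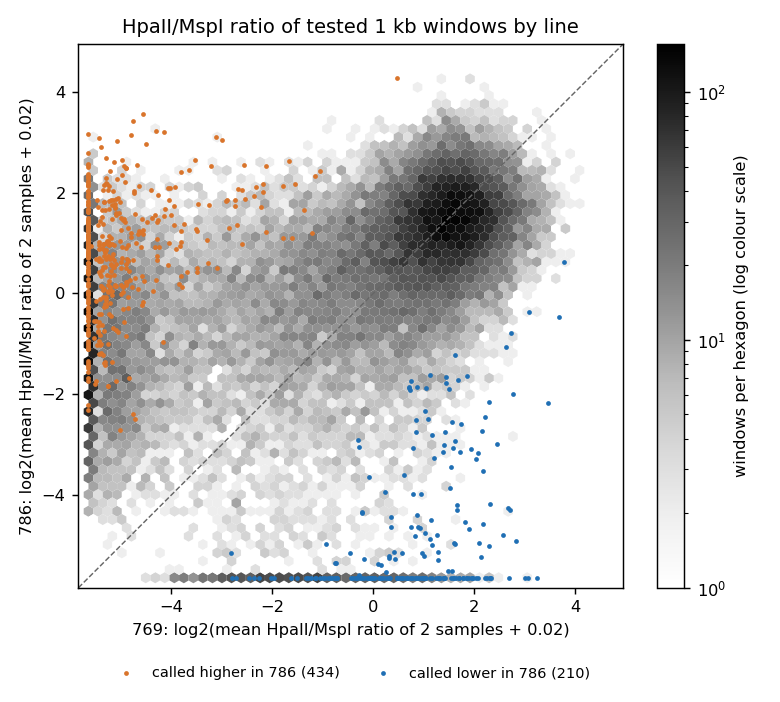
Each tested window by the mean HpaII/MspI ratio of the 2 samples of 769 (horizontal axis) and of 786 (vertical axis), both as log2 of the mean plus 0.02; grey hexagons count windows on a log colour scale, and points are the 434 windows called higher (orange) and 210 called lower (blue) in 786. Most called windows sit along the edges, where 1 line has next to no HpaII tags.

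MspI tags alone tested the amount of cuttable DNA in the denominator. In edgeR's test of MspI only, 5 of 44016 windows (0.0114%) differed between the lines. Of the 434 windows called higher in 786, 119 had MspI levels more than 2-fold apart between the lines, with a median MspI difference of −0.36 (log2, 786 minus 769), and 1 passed the MspI test. Of the 210 called lower, 34 were more than 2-fold apart, the median was 0.02, and none passed the MspI test, where 2862 of all windows had an unadjusted p under 0.05. The share of all tested windows more than 2-fold apart in MspI was not counted. Whether 119 and 34 are more than usual is therefore not known. The part of MspI levels in these calls was not tested beyond this.

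The control samples, which the test did not use, were read in the same windows. With at least 10 MspI tags in both controls and a HpaII tag in either, 247 of the windows called higher could be read, and 205 of them (83.0%) had a higher ratio in the 786 control. Of 168 readable windows called lower, 159 (94.6%) had a lower ratio in the 786 control. Over all tested windows the shares were 37.1% higher and 62.9% lower. Both sets thus differed between the controls in the direction seen in the AA samples, more often than the tested windows did. With 1 control per line this has no replicate check, and 182 windows called higher and 39 called lower had no HpaII tag in either control.

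**Figure D4:**
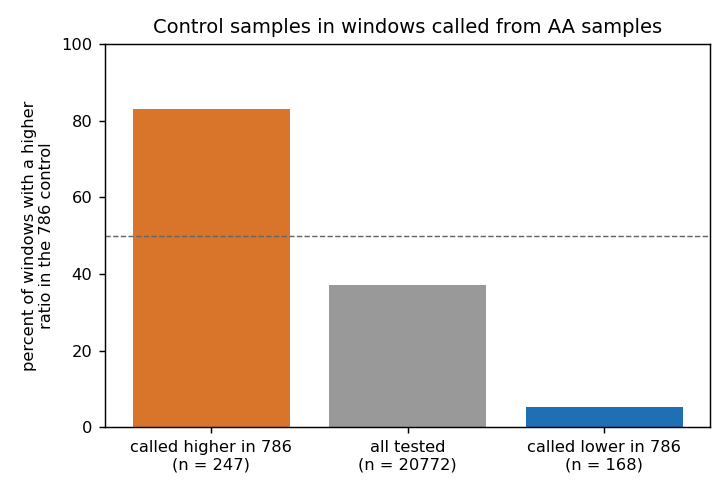
Percent of windows with a higher HpaII/MspI ratio in the 786 control than in the 769 control (vertical axis, dashed line at 50), for windows called higher, all tested windows and windows called lower in the AA samples, with n windows that had a HpaII tag in either control. The bars stand at 83.0% for windows called higher and 37.1% for all tested windows.

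The positions of genes were found through the spacing of CCGG sites in RefSeq promoters, since the coordinates of these files are hg19. Starts of 5837 genes fell in 5325 of the windows, of which 5240 were tested. Whether other windows lie in exons or introns was not analysed here. A start was placed only through at least 3 CCGG sites of its promoter, so gene-start windows were selected for CCGG sites. Only 8826 of 35116 starts were placed, so the other windows may hold unplaced starts. Gene-start windows were open in both lines in 81.4% of cases, against 24.1% of the other windows, and closed in both in 1.58% against 31.9%. Calls at gene starts numbered 34 (0.649%), 14 higher and 20 lower in 786, against 610 of 25505 other tested windows (2.39%). The median difference was −0.01 (log2) at gene starts and 0.65 elsewhere. The minimum of summed HpaII tags kept 5240 of 5325 gene-start windows but only 25505 of 38691 other windows. A window closed in 1 line passes this minimum only through tags of the other line. With no HpaII minimum the median over all windows was 0.13 (log2) instead of 0.45, and gene starts were not set apart there. How far the minimum accounts for the 0.65 was not tested. Gene-start and other windows were not matched for CCGG density. Of all windows with 16 or more CCGG sites, 83.1% were open in both lines. Of the tested ones 1.65% were called, with a median difference of −0.02 (log2). How far CCGG density accounts for the contrasts at gene starts was not tested. Windows called higher lay a median of 70.2 kb from the nearest placed start, those called lower 16.5 kb, and all tested windows 29.9 kb. These and later distances run from the middle of a window to the middle of the promoter's CCGG sites.

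Among the gene starts that were lower in 786, LRFN4 (chromosome 11, hg19 66624001 to 66625000) had the smallest p. Its window ratios were 3.31 and 4.44 in 769 and 0 and 0 in 786, on 469, 364, 0 and 0 HpaII tags. The groups did not overlap, which was a condition for naming a window. Line 786 was at least 102-fold lower, taking a floor of 3 tags per library (edgeR adjusted p = 2.32e-05). In the controls the ratios were 6.61 in 769 and 0 in 786. POPDC3 (chromosome 6, 105627001 to 105628000; 1 of its 2 starts in the RefSeq table) had ratios of 0.802 and 3.28 in 769 and 0 in both samples of 786, at least 68.7-fold lower (edgeR adjusted p = 0.000196). ASTN2 (chromosome 9, 119449001 to 119450000), which acts in the migration of neurons along glia, had 2.41 and 7.47 in 769 and 0 in both samples of 786, at least 96.5-fold lower (edgeR adjusted p = 0.000431). It is 1 of 3 starts of this gene in that table. The window of UTF1 (chromosome 10, 135043001 to 135044000) had 4.05 and 4.36 in 769 and 0.121 and 0.0614 in 786, a difference of −5.52 (log2, SE 0.87, edgeR adjusted p = 0.000402). These 4 windows stayed called under each of the 14 alternatives that gave them a value. In sample 1 of 786 the POPDC3 window had MspI tags at 1 site only. Of the 29 named gene-start windows, the other 25 lost the call when 1 DNA sample or another was left out, 9 without sample 1 of 769, 16 without sample 2 of 769, 19 without sample 1 of 786 and 16 without sample 2 of 786.

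Exchange factors of small GTPases start in a pair of the windows lower in 786. The start window of TIAM1 and its antisense gene (chromosome 21, 32931001 to 32932000) had ratios of 1.75 and 2.59 in 769 and 0.0281 and 0 in 786. TIAM1 encodes an exchange factor that activates Rac, and its window was 245-fold lower in 786 (95% interval 43.6 to 9708, for counting error only, edgeR adjusted p = 0.00955). In 786, MspI left 21 and 145 tags in the TIAM1 window. At its strongest site, with 85 and 80 HpaII tags in 769, MspI left 0 and 55 in 786, so sample 1 of 786 was thinly covered. RASGRF2, an exchange factor for Ras, shares its window (chromosome 5, 80256001 to 80257000) with its antisense gene, and had 1.40 and 0.728 in 769 and 0 in both samples of 786. That is at least 20.3-fold lower (edgeR adjusted p = 0.00647). Without sample 2 of 769 the edgeR adjusted p was 0.0651 for TIAM1 and 0.0504 for RASGRF2, without sample 2 of 786 it was 0.179 for TIAM1, and without sample 1 of 786 it was 0.228 for RASGRF2. In both windows a pair of opposite genes starts. TIAM1 and its antisense gene have the same promoter sites, so the assay does not tell their promoters apart. RASGRF2 and RASGRF2-AS1 share no promoter site. Their HpaII tags in 769 were 32 and 11 for RASGRF2 and 16 and 0 for RASGRF2-AS1, with 0 in both samples of 786. MspI left 11 and 22 tags in 786 for RASGRF2. For RASGRF2-AS1 it left 0 and 14, so MspI gave no check of these sites in sample 1 of 786.

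TAFA5, a secreted chemokine-like protein, had 4.58 and 2.58 in 769 and 0.337 and 0.261 in 786, a difference of −3.52 (log2, SE 0.77, edgeR adjusted p = 0.0111). GREM1, a secreted antagonist of bone morphogenetic proteins, had 0.806 and 0.112 in 769 and 0 in both samples of 786, at least 24.7-fold lower (edgeR adjusted p = 0.0168). HS3ST2, a sulfotransferase that modifies heparan sulfate, had 1.87 and 4.38 against 0.0350 and 0.0345, a difference of −6.30 (log2, SE 1.30, edgeR adjusted p = 0.00625). The promoter letters of these last 2 genes do not carry the call. The sites within the 300 bases had 1 and 0 HpaII tags in 769 and 7 and 0 in 786 for GREM1, and 6 and 0 against 0 and 0 for HS3ST2, so their tags lay elsewhere in the window. For TAFA5 and GREM1 the window holds 1 of 2 starts in the table. LRRC4, a synaptic adhesion protein, had 0.829 and 0.892 in 769 and 0 and 0.0117 in 786. Its window was 261-fold lower in 786 (95% interval 46.2 to 10375, edgeR adjusted p = 0.0124). Leaving out sample 1 of 786 ended the calls of HS3ST2 (edgeR adjusted p = 0.0852), LRRC4 (0.336) and GREM1 (0.397). GREM1 also lost its call without sample 1 of 769 (0.0518) or sample 2 of 786 (0.071), and TAFA5 without sample 1 (0.0764) or sample 2 (0.0557) of 769.

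The homeobox genes GSC2 and HMX1 were lower in 786 as well. GSC2 had ratios of 1.37 and 2.04 in 769 and 0.0236 and 0.173 in 786, a difference of −4.55 (log2, SE 1.00, edgeR adjusted p = 0.0114). HMX1 had 1.99 and 2.21 against 0.123 and 0.193, a difference of −3.77 (log2, SE 0.85, edgeR adjusted p = 0.0133). FAM107A, first described as lost in renal cell carcinoma, had 1.48 and 8.24 in 769 and 0.0219 and 0 in 786 at 1 of its 3 starts, on 4 CCGG sites (edgeR adjusted p = 0.0133). FAM163B, at 1 of its 2 starts, had 3.69 and 2.21 against 0.0267 and 0.172, a difference of −5.32 (log2, SE 1.03, edgeR adjusted p = 0.00324). FMNL1-AS1 had 1.34 and 1.39 against 0 and 0 (edgeR adjusted p = 0.0179). In each of these windows both samples of 769 were above both of 786, as the naming rule required. Without sample 1 of 786 the edgeR adjusted p was 0.0553 for FAM163B, 0.0903 for HMX1, 0.182 for GSC2 and 0.403 for FMNL1-AS1. Without sample 2 of 786 it was 0.152 for FAM107A and 0.0931 for FMNL1-AS1. Without sample 2 of 769 it was between 0.0577 and 0.174 for FMNL1-AS1, GSC2, HMX1 and FAM107A, and without sample 1 of 769 it was 0.0511 for HMX1. The remaining 5 windows called lower, which fall outside the naming rule and were named after their values were seen, hold starts of MLPH, FBN2, NAT14, LOC124900480 and POPDC1, a second Popeye family gene near POPDC3.

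At the gene starts that were higher in 786, RAB34 (chromosome 17, 27044001 to 27045000) had the smallest p. Its ratios were 0.00971 and 0 in 769 and 2.07 and 4.88 in 786, on 1, 0, 231 and 215 HpaII tags, 528-fold higher (95% interval 94.2 to 20891, edgeR adjusted p = 0.000985). The window holds 1 of 3 RAB34 starts in the table, and both controls had no HpaII tag in it. SLC6A19 (chromosome 5, 1201001 to 1202000) had 0.133 and 0.721 in 769 and 6.88 and 3.20 in 786, a difference of 3.88 (log2, SE 0.91, edgeR adjusted p = 0.0177). In the controls its ratios were 1.07 in 769 and 1.15 in 786, so the controls did not show this difference. WFDC2 (chromosome 20, 44098001 to 44099000) had 0.140 and 0.25 against 3.24 and 3.28, a difference of 4.12 (log2, SE 1.04, edgeR adjusted p = 0.0285), with no HpaII tag in either control. RAB34 lost its call without sample 2 of 786 (edgeR adjusted p = 0.104), SLC6A19 without sample 1 of 769 (0.122) or of 786 (0.28), and WFDC2 without any 1 of the 4 samples (0.0578 to 0.304).

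FLNC, an actin cross-linking filamin of muscle, had 0.350 and 0.571 in 769 and 5.86 and 4.84 in 786, a difference of 3.59 (log2, SE 0.91, edgeR adjusted p = 0.0297). ARTN, a secreted ligand of the GDNF family, had 0.273 and 0 against 3.26 and 5.13, a difference of 5.48 (log2, SE 1.32, edgeR adjusted p = 0.0205). CRACR2A, a regulator of store-operated calcium entry, had 0 in both samples of 769 and 1.02 and 1.00 in 786, a rise of at least 7.28-fold (edgeR adjusted p = 0.0382). The groups did not overlap in these 3 windows, as the naming rule required. FLNC lost its call without any 1 of the 4 samples (edgeR adjusted p from 0.0547 to 0.403), ARTN without sample 2 of 769 (0.0927) or of 786 (0.34), and CRACR2A without sample 1 of 769 or either sample of 786 (0.133 to 0.73). PLPP7 and 1 of 3 starts of MGA, a partner of MAX in transcription, were close to the threshold, at edgeR adjusted p = 0.041 and 0.0472. They kept their call under 4 and 3 of 14 alternatives. The other windows called higher hold 1 of 2 starts each of the antisense gene SNX10-AS1 and of LOC102724193, and the uncharacterised loci LOC124900965, LOC105373086, LOC124903622 and LOC124904173. Each of these 6, and PLPP7 and MGA, also lost the call without at least 1 sample, at edgeR adjusted p from 0.051 to 0.888.

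**Figure D5:**
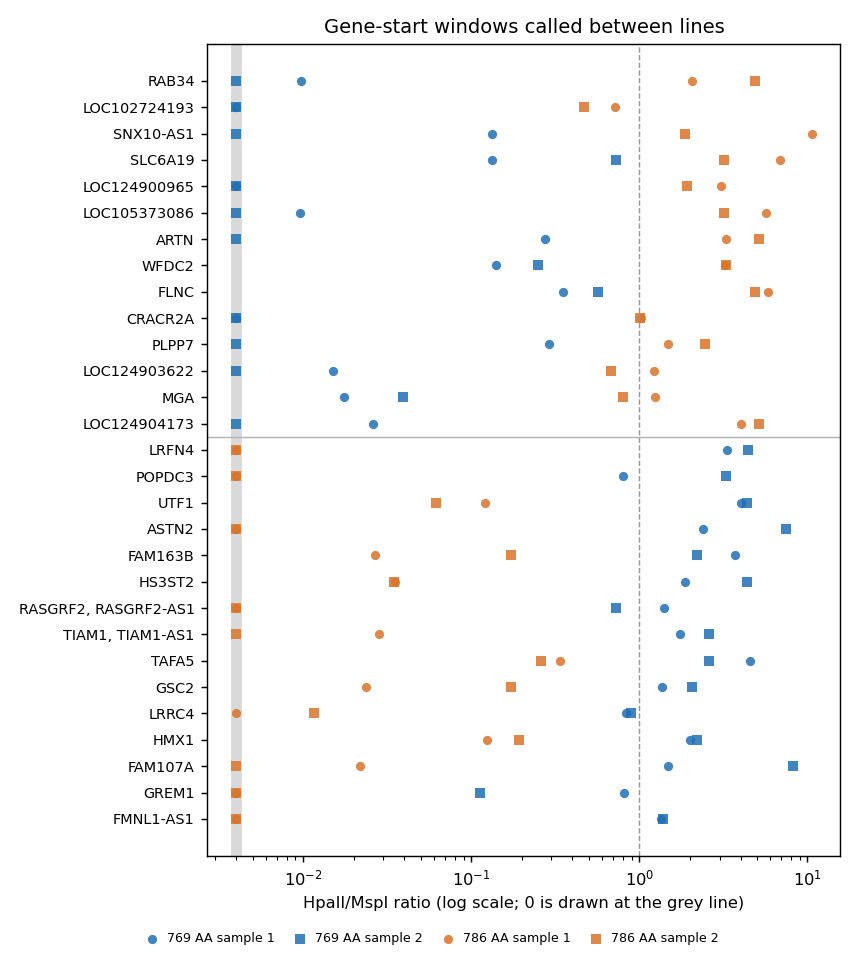
HpaII/MspI ratio (horizontal log axis; 0 is drawn at the grey line) of each named gene-start window in the 2 samples of 769 (blue) and the 2 of 786 (orange), circles for sample 1 and squares for sample 2. Above the grey rule stand the 14 windows called higher in 786, below it the 15 named among the 20 called lower. The colours do not overlap in any row, which was a condition for naming a window.

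Gene lists for kidney identity, renal carcinoma and methylation gave no call. Of 411 genes in 14 lists, 90 had a start in a window, and none of the 14 lists had a called member, where gene starts as a whole had 0.649% and the edgeR test called 4334 windows of all 30745 at an unadjusted p under 0.05. Renal carcinoma tumour suppressors were measured at 11 starts of 10 genes, of which 10 were open in both lines, and the median difference was 0.43 (log2) against −0.01 over all gene starts. RASSF1, a Ras association domain protein that is often methylated in tumours, had ratios of 3.76 and 3.16 in 769 and 11.3 and 1.72 in 786. PBRM1, a chromatin remodeller often mutated in this carcinoma, had 1.39 and 1.22 against 8.45 and 4.67 (edgeR adjusted p = 0.441). BNC1, a zinc finger protein, was closed in both, with 0 and 0 against 0.0207 and 0.

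Among 8 transcription factors of the kidney lineage, PAX2 and PAX8, which specify renal epithelium, were open in both lines. PAX2 had ratios of 2.88 and 4.07 in 769 and 3.71 and 4.05 in 786, and PAX8 had 2.42 and 4.73 against 7.71 and 1.23. IRX1, a homeobox gene of the nephron, had 0.869 and 0.182 in 769 and 0.0243 and 0.0152 in 786 (edgeR adjusted p = 0.153). These values do not overlap, as in 45.1% of all tested windows, and did not pass the test. In the hypoxia pathway, which is active in this carcinoma, 7 of 8 starts were open in both lines. Its smallest p was that of SLC2A1, a glucose transporter, with 2.18 and 1.69 against 4.00 and 7.22 (edgeR adjusted p = 0.416).

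Of the enzymes that write, read or remove DNA methylation or use 2-oxoglutarate, 6 of 8 starts were open in both lines. DNMT3A, a de novo DNA methyltransferase, had 1 start that was closed in 769 and open in 786, with 0 and 0.0869 against 2.11 and 0.951 (edgeR adjusted p = 0.282), and its other measured starts were open in both. TET3, a TET dioxygenase, had 1.69 and 1.48 against 1.45 and 1.72. CLDN7, a tight junction claudin of the epithelial list, had 1 start with 2.14 and 1.11 in 769 and 0.0633 and 0 in 786 (edgeR adjusted p = 0.27), and a further start was closed in both lines. Of the HOX genes HOXD11 had 0.890 and 0.188 against 2.71 and 3.72 (edgeR adjusted p = 0.229), and the median of 7 starts was 0.38 (log2). NEUROG1, from 28 tested starts of other developmental factors with a median of 0.61, had 1.46 and 4.58 against 0.509 and 0.862 (edgeR adjusted p = 0.248).

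In the other 7 lists the smallest edgeR adjusted p was between 0.476 and 0.968. SDHA, a succinate dehydrogenase subunit from the ubiquitously expressed genes, had 5.67 and 6 in 769 and 2.61 and 2.68 in 786. INPP5F, from the imprinted genes, had 4.57 and 3.16 against 0.880 and 2.78. FOXI1, a transcription factor of intercalated cells on the list of tubule transport, had 0.608 and 0 against 1.41 and 0.750. SFRP5, the 1 secreted Wnt antagonist measured, had 2.88 and 2.33 against 0.439 and 0.996. TWIST2, a mesenchymal transcription factor, had 1.78 and 1.53 against 0.523 and 0.642. PIWIL1, a germline Piwi protein, had 0.453 and 0.0148 against 0.945 and 0.694, and IRF1, an interferon regulatory factor, 3.12 and 2.96 against 1.91 and 3.98. Only the IRF1 values overlapped between the lines, and none of the 7 passed the test. Each was the member of its list with the smallest p, and 45.1% of all tested windows did not overlap.

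Named windows without a placed gene start kept their call without any 1 of the 4 DNA samples. Those with the smallest p lay far from placed starts in the higher direction. On chromosome 9 the window 129776001 to 129777000, with 1 listed CCGG, had ratios of 0.00921 and 0 in 769 and 2.05 and 1.26 in 786, 283-fold higher (95% interval 78.2 to 2343, edgeR adjusted p = 0.000114). On the same chromosome the window 137439001 to 137440000 had no HpaII tag in 769 and ratios of 1.58 and 1.79 in 786, a rise of at least 19.8-fold (edgeR adjusted p = 0.000114). The window 784001 to 785000 on chromosome 4 had 0.0250 and 0 against 4.93 and 6.61, a difference of 8.27 (log2, SE 1.14, edgeR adjusted p = 0.000114). On chromosome 20, 60509001 to 60510000 had 0.00831 and 0 against 2.59 and 1.74, and the control of 786 had 5.25 there against 0 in 769. Chromosome 5, 758001 to 759000, had 0 and 0 against 2.38 and 1.28, with 20.8 in the 786 control and 0.0168 in that of 769. In these windows both samples of 786 were well filled and 769 was empty or close to it. The first 3 of these windows had no HpaII tag in the 786 control, on 169, 344 and 173 MspI tags, nor in the 769 control. Of the 10 named windows of this direction, 6 had no HpaII tag in the 786 control.

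The remaining 5 named windows of this direction lay on chromosome 7 (30795001 to 30796000), 9 (137804001 to 137805000), 19 (36297001 to 36298000), 1 (2423001 to 2424000) and 20 (31199001 to 31200000). They had ratios between 0.65 and 4.73 in 786 and at most 0.012 in 769. Except for MINDY4 at 15.5 kb from the chromosome 7 window, the nearest placed start of the 10 windows was at least 26.4 kb away.

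Lower in 786 with the smallest p, beside LRFN4 and POPDC3, were 8 windows without a placed start, all with at least 6 CCGG sites. On chromosome 19 the window 1467001 to 1468000 had 1.08 and 0.711 in 769 and 0 in both samples of 786, at least 64.0-fold lower (edgeR adjusted p = 5.09e-05). The window 73496001 to 73497000 on chromosome 2 had 2.53 and 3.34 against 0.00413 and 0, 974-fold lower (95% interval 174 to 38542, edgeR adjusted p = 5.09e-05). On chromosome 7, the middle of 70597001 to 70598000 lies 0.504 kb from the promoter sites of GALNT17, so the window borders that promoter. GALNT17 encodes a glycosyltransferase of mucin-type O-glycosylation. The window had 3.59 and 2.15 against 0 and 0, at least 143-fold lower (edgeR adjusted p = 0.000104). On chromosome 19, 30017001 to 30018000 lies 1.31 kb from the start of VSTM2B and had 2.26 and 5.92 against 0.0629 and 0.102, a difference of −5.51 (log2, SE 0.81, edgeR adjusted p = 0.000232). On chromosome 20, 60938001 to 60939000 lies 3.98 kb from that of LAMA5, a laminin chain, and had 0.365 and 1.23 against 0.00146 and 0. In the controls the first 4 of these windows had ratios from 1.01 to 1.90 in 769 and 0 in 786, while the last had 0.168 and 0.687.

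The other 3 lay on chromosome 17 (14204001 to 14205000), with 3.91 and 3.10 against 0.00537 and 0.0411, on chromosome 1 (232941001 to 232942000), with 1.78 and 1.54 against 0 and 0, and on chromosome 10 (134598001 to 134599000), with 1.40 and 2.45 against 0 and 0.0159. Their nearest placed starts were between 145 and 232 kb away. Both samples of 769 were open and both of 786 closed in each of the 3.

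Called windows were mostly alone. Joined within 10 kb in the same direction, they formed 595 regions, of which 558 were single windows and 7 had 3 or more. The largest had 6 windows on chromosome 1 (161418001 to 161442000), with summed ratios of 1.61 and 1.88 in 769 and 0.253 and 0.278 in 786, and 2.58 and 0.461 in the controls. In that region 81.9% of the tags were at sites with counts that are not whole, which arise where a tag is shared between places, against 10.1% over all tested windows. The same share was 87.1% in the 4 windows of chromosome 7 (56435001 to 56442000), which had 0.0236 and 0.00642 in 769 and 0.152 and 0.174 in 786. Values in these 2 regions are therefore uncertain as to place. On chromosome 13 (110434001 to 110437000), where the share was 0.0346%, 3 windows had summed ratios of 0.187 and 0.176 in 769 and 2.39 and 7.70 in 786, and 0.606 and 1.60 in the controls.

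By chromosome the called share of tested windows ran from 0.741% on X to 3.40% on chromosome 8. Higher windows outnumbered lower ones on chromosome 7, with 49 against 9, and on chromosome 20, with 28 against 10. On chromosome 19 the order was opposite, with 10 higher and 17 lower, and its median difference was 0.00 (log2) where chromosome 7 had 0.69. Chromosome 10 also had fewer higher than lower windows, 13 against 15, with a median of 0.53, and chromosome 11 had 9 of each. The median MspI difference was −0.32 on chromosome 19 and 0.20 on chromosome 7. It was lower still on chromosomes 6, 11, 13, 18 and X, and its part in these counts was not tested.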

How the data were processed

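Genomic DNA of AA-treated samples of 2 lines was read by HELP-tagging. Adapters were ligated to the cut DNA, tags were made with EcoP15I, and libraries went through in vitro transcription and 18 PCR cycles, per the labels' protocols. No molecular identifiers are described, so intervals and floors cover counting error only. The authors deposited an expected count of tags per CCGG site, not normalized as far as the files show, on hg19 coordinates (from the submitters' processing notes). For the aligner, a name was not given in the sources used here. The members and lists were chosen with earlier results of these data known.

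Counts were summed in 1 kb windows and rounded to whole numbers. edgeR 4.0.16 (R 4.3.3) fitted terms for DNA sample, enzyme and enzyme by line on nuclear tag totals without TMM, with 2 residual degrees of freedom, over 30745 windows, and p-values were adjusted over all of them. On simulated data for this comparison, with 30745 windows, 89.4% of the windows changed 256-fold, 4.55% of those changed 16-fold and 0% of those changed 4-fold were recovered, and 2 of 64 calls were false. The changed windows were drawn from those with a mean of at least 20 HpaII tags, so changes of 16-fold or less were mostly not detectable. For folds against 0 tags the floor is 3 tags in each library, and for those against 1 to 3 tags an exact 95% interval. Python 3.11.15, pandas 2.3.3 and scipy 1.17.1 did the rest.

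RefSeq promoters (GRCh38.p14) were placed by the spacing of at least 4 CCGG sites, or of 3 sites between placed neighbours. Of the first 6919 placements, 99.75% fell on the gene's chromosome, and a check of the second step placed 4768 of 4769 known starts correctly. In all, 8826 of 35116 starts were placed. No promoter of chromosome 8 was placed.

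Named windows are the 10 with the smallest p per direction (15 for gene starts) among called windows whose lines do not overlap, at most 1 per 100 kb and not on chromosome 8, and for a list with no call its smallest-p member. PAX2, PAX8, RASSF1, BNC1 and TET3 are named beyond this rule, after their values were seen. Replicate numbers did not pair the samples, since the deviations of same-numbered samples correlated at −0.012 over windows. Alternatives were TMM, DESeq2 1.42.0, other tag minimums, shifted and 2 kb windows, thinned libraries, HpaII alone, a replicate block, all 12 libraries, and leaving out each DNA sample.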

Additional observations from a re-analysis of the deposited data

How the results depend on the processing

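Of the counts, 644 called windows (434 higher, 210 lower in 786) and 34 gene starts (14 higher, 20 lower), with the median of 0.45 (log2), varied with the setting as follows. DESeq2 called 4831 (3287 higher, 1544 lower) and 330 gene starts (94 and 236), with a median of 0.28. With no HpaII minimum the median was 0.13 and 52 gene starts were called, 32 of them lower. With at least 10 HpaII tags in each library 12 windows (3 and 9) and 3 gene starts (1 and 2) were called, and the median changed sign to −0.0948. At least 20 MspI tags gave a median of 0.31 and 9 higher gene starts. Shifted windows gave 327 calls (206 and 121) and 20 gene starts, 10 of them lower. Thinned libraries gave 155 (96 and 59) and 8 gene starts (2 and 6), with a median of 0.30. HpaII alone gave 329 lower windows, 67 gene starts with 54 lower, and a median of 0.0700, and shared 431 of the 644 calls. The replicate block gave 756 calls (491 and 265) and 52 gene starts (20 and 32), and the pairing was not borne out by the samples. All 12 libraries gave a median of 0.27. The cause of these changes was not tested, except that thinning and tag minimums leave fewer tags or windows. TMM and 2 kb windows kept each count within 1.5 times.

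Leaving out each DNA sample in turn gave between 137 and 920 calls (53 to 723 higher, 84 to 197 lower), 13 to 52 gene starts (4 to 32 higher, 9 to 29 lower) and medians from 0.14 to 0.97. The lowest count came without sample 1 of 786, 118 of whose 137 calls were among the 644, and the highest without sample 1 of 769. The lone sample of a line is then assumed to vary like the others. The MspI calls ranged from 0 (2312 windows at an unadjusted p under 0.05) to 26, and the sparse-to-dense fold from 1.40 to 2.57. At least 20 MspI tags left 6523 windows closed in both lines, 838 open in 786 and closed in 769, and 173 with the opposite states. No named window changed direction under any alternative run. Sample 2 of 769 had the shallowest HpaII library of the AA samples.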
